A study of Homo sapiens with 4 samples.

Results

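The G2/M and mitosis genes described here are 50 genes whose products work from late G2 phase to cell division, out of 36601 genes listed in the data. They were taken by gene symbol from a list of names, and each of the 50 was found once. The cells were BEAS-2B, an immortalized line of normal human bronchial epithelium. The study compared 4 conditions: an unirradiated control, and cells given 10 mGy, 100 mGy or 1 Gy of gamma rays from Cs-137, collected 30 min after irradiation. The question was how gene expression varies among single cells after a low dose as compared with a high one. Each condition has 1 single-cell RNA library made by droplet sequencing, in which each captured mRNA molecule receives a unique molecular identifier (UMI) and each cell a barcode. There is no replicate, so no test between doses was possible, and an effect of dose and a difference between libraries cannot be told apart. Every interval given is an exact 95% interval that covers counting error only.

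A dividing cell raises the activity of the kinase CDK1 at the end of G2 phase, condenses its chromosomes, attaches them to the spindle at the kinetochores and, once a checkpoint is satisfied, degrades securin and cyclin B to separate them. Many mRNAs of this programme are made late in the cell cycle and removed after division, so in a growing culture they are concentrated in part of the cells. Radiation is known to delay cells in G2 phase. Repression and release of many such genes run through 2 short promoter elements. These are the CHR element, whose core is TTTGAA, bound by the MuvB complexes, and the CCAAT box, bound by NF-Y.

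The promoter sequences of 5 members are shown because of their place in the expression patterns described below, as values already known showed. HMMR and PRC1 had the highest ratios of 100 mGy to 10 mGy, and TACC3 had the lowest. MKI67 was the lowest at 10 mGy relative to control. CKS2 was higher at both low doses, though PTTG1 and UBE2C were higher still. Each line holds the 150 bases before the annotated start, 5′ to 3′ on the strand of the gene, from RefSeq in build GRCh38.p14. Capitals mark TTTGAA and CCAAT on either strand (read as TTCAAA and ATTGG on the other), and where matches overlap the capitals run on.
HMMR: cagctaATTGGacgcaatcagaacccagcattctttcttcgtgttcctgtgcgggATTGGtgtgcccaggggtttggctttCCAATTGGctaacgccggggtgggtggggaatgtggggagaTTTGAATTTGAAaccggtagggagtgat
PRC1: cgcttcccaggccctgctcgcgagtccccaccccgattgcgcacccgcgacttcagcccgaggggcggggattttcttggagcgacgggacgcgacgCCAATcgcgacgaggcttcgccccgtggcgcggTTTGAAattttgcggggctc
CKS2: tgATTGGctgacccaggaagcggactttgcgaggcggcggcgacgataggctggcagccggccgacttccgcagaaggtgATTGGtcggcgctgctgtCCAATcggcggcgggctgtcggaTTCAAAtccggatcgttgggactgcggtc
MKI67: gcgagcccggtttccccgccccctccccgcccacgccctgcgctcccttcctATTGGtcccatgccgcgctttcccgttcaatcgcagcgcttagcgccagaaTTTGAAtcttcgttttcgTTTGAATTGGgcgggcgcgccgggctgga
TACC3: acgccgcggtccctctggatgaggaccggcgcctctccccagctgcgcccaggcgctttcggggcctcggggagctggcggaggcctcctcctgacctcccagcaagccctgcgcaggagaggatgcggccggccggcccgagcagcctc

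These windows lie at chr5:163460482-163460631 on the plus strand for HMMR, chr15:90994536-90994685 on the minus strand for PRC1 and chr9:89311045-89311194 on the plus strand for CKS2. For MKI67 the window is chr10:128126424-128126573 on the minus strand, and for TACC3 it is chr4:1720481-1720630 on the plus strand. The window of HMMR holds 2 copies of TTTGAA and 4 of CCAAT, that of CKS2 1 and 3, that of PRC1 1 of each, and that of MKI67 2 of each. The window of TACC3 holds 0 of both. Both elements are thus shared by genes that were lower and genes that were higher at the low doses.

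RefSeq windows from 250 bases before to 50 bases after the start were found for 43 of the 50 members, and AURKA, BIRC5, BUB3, HMGB2, TPX2, TTK and UBE2C had no entry. TTTGAA lay in a window of 31 of the 43 genes (72.1%), against 18.2% of the genes with a window in the table and 13.4% of those among the genes tested for expression. CCAAT lay in a window of 34 members (79.1%), against 39.7% and 43.9%. Of the members, 26 (60.5%) held both, against 7.26% and 5.63%. The matches of TTTGAA in the members clustered near the start, with a median position of -28 and, over 54 windows that partly overlap, 37 of 47 matches within the last 100 bases before the start or after it. Those of CCAAT lay further upstream, with a median position of -82. A match is a description of the letters in the window and shows no binding.

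In the libraries, the matrices held between 11111 and 21514 barcodes and between 211752280 and 285806026 UMIs. The control had the highest median UMI count per barcode (19771), and the others lay between 12417 and 14277. Median genes per barcode were 5447 in the control, 4035 after 10 mGy, 3702 after 100 mGy and 4652 after 1 Gy. The median percentage of mitochondrially encoded UMIs was 5.75, 4.17, 4.29 and 5.41 in the same order, so the low-dose libraries were lowest in both measures. Barcodes with under 1/3 of the median UMI count of their library made up 19.6% of the control library, and 41.4%, 27.4% and 25.4% after 10 mGy, 100 mGy and 1 Gy. Any pair of libraries shared 76 to 134 barcode sequences, at most 0.864% of a library. Of the epithelial markers, KRT7, KRT8 and KRT18 lay between 219 and 645 UMIs per 1000000 UMIs (CPM) in every library, while KRT19 and EPCAM reached at most 2.41 and 1.17 CPM and CDH1 had 5 to 14 UMIs. Among markers of other cells, CD3E had 0 UMIs in each library, PTPRC, PECAM1, HBB and ALB had 1 to 17, VWF 63 to 140 and CD14 139 to 431.

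The level of a gene was its UMIs summed over all barcodes of a library, in CPM. All 50 members passed the limit of a mean of 10 CPM, as did 8507 genes in all, and each member had between 5110 and 145737 UMIs per library. Counting error was therefore small beside the differences described. A pooled level cannot tell fewer cells of a cycle phase from less RNA per cell. Together the members took 0.938% (0.937 to 0.940) of the UMIs in the control, 0.774% (0.773 to 0.775) after 10 mGy, 0.870% (0.869 to 0.871) after 100 mGy and 0.956% (0.955 to 0.957) after 1 Gy. Relative to control this was 0.825 times after 10 mGy, 0.927 times after 100 mGy and 1.02 times after 1 Gy. By this share the 10 mGy library was thus the lowest, and control and 1 Gy lay close together. In low-UMI barcodes the share was higher than in the other barcodes of the same library, from 0.877% against 0.768% at 10 mGy to 1.12% against 0.934% in the control. Without low-UMI barcodes the order of the libraries stayed the same.

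At 10 mGy, 25 of the 50 members were at least 1.2-fold below control and 5 were at least 1.2-fold above, while 20 lay between. In all genes tested, 53% were lower and 15.4% were higher by this rule, so the count of lower members lies near the background. The median ratio of the members was 0.841 (0.493 to 1.60), against 0.810 for all genes. At 100 mGy, 18 members were lower and 10 higher, against 58.9% and 14% of all genes. There the median ratio of the members was 0.930 (0.512 to 1.82), and that of all genes was 0.766. At 1 Gy, 0 members were lower and 2 higher, against 0.846% and 1.28% of all genes, with a median ratio of 1.04 (0.865 to 1.23) against 1.01. With size factors that set the median gene to no change, 13 members were lower and 15 higher at 10 mGy, against 27.3% and 30.6% of all genes, so that both counts lie near the background. At 100 mGy 6 were lower and 25 higher on this scale, against 29% and 31.8%. The sign of the members' median relative to control therefore depends on the scaling at both low doses. The median of all genes was shifted by -0.30, -0.38 and 0.02 (10 mGy, 100 mGy and 1 Gy) on the log2 scale, and relative to these shifts the members' median was 0.05, 0.28 and 0.04 higher.

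**Figure D1:**
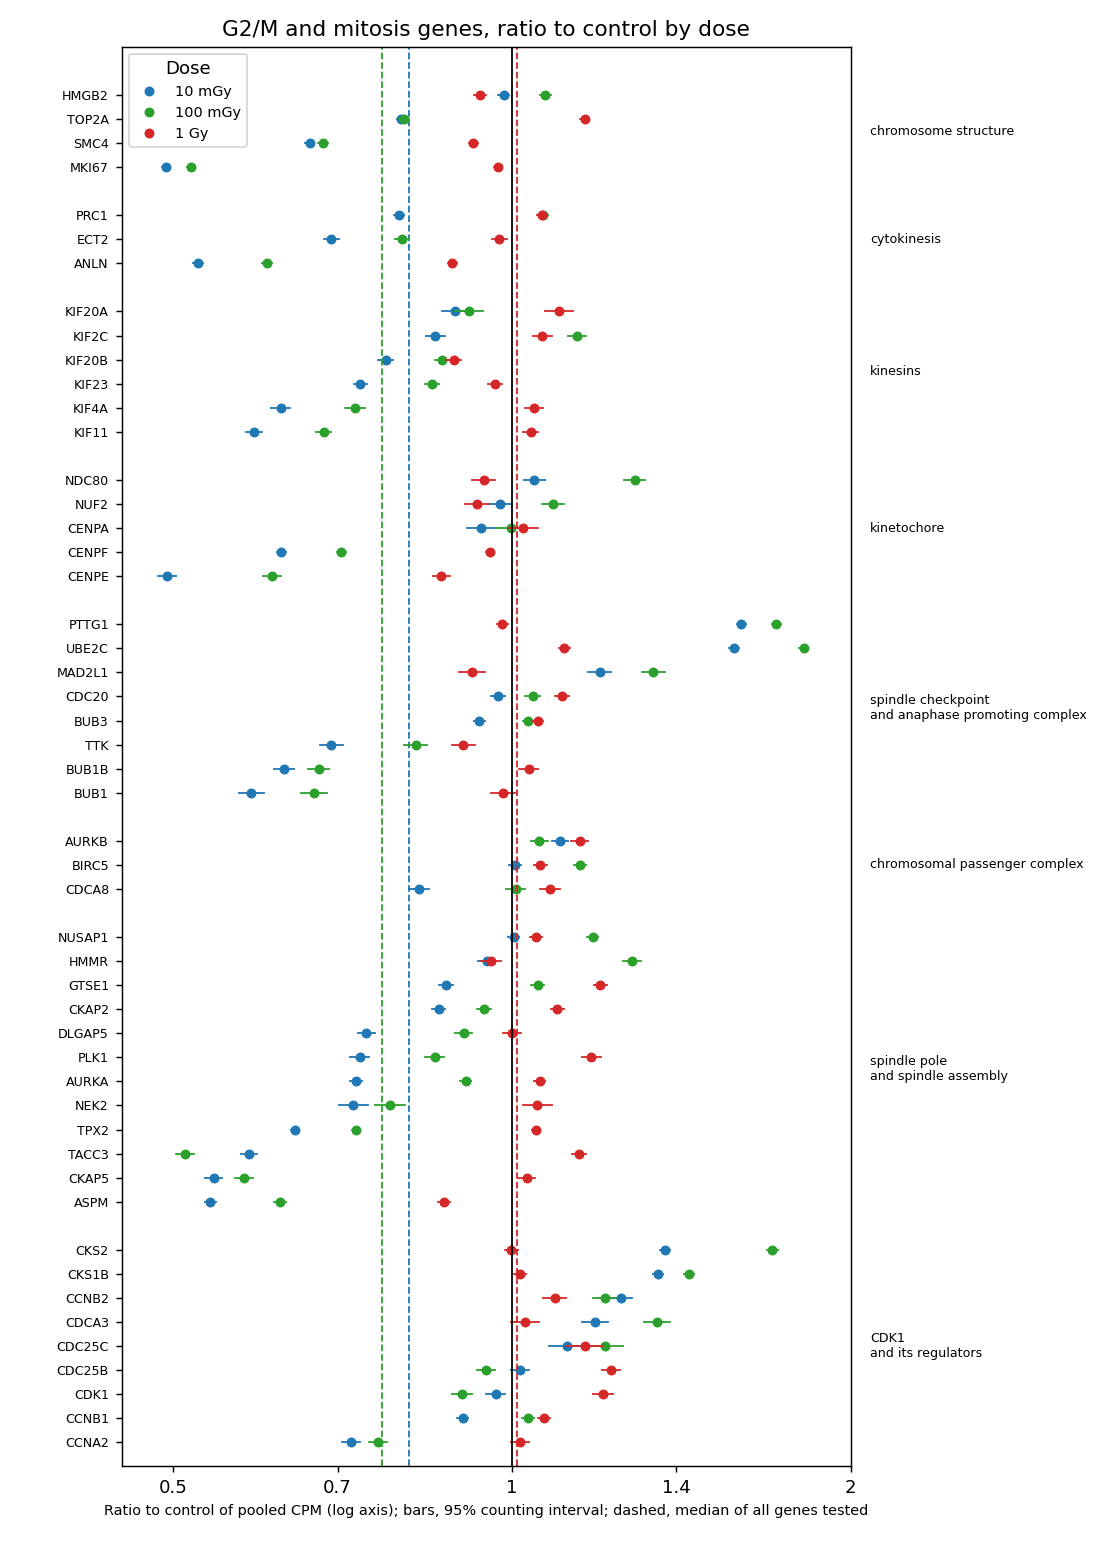
Ratio to control of the pooled level (CPM) of each of the 50 members, on a log axis, with members grouped by role and ordered within a role by the ratio at 10 mGy. Points are the 3 doses, bars are exact 95% counting intervals and dashed lines are the median of the 8507 genes tested; most 1 Gy points lie near 1, while the low doses spread from 0.493 to 1.82.

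CDK1 and its regulators were the role group with the highest median ratio at both low doses, with medians of 1.12 after 10 mGy, 1.21 after 100 mGy and 1.07 after 1 Gy. Of these 9 genes, 3 were higher and 1 lower by 1.2-fold at 10 mGy, against 15.4% and 53% of all genes. CKS2, a small CDK-binding subunit, had 234 CPM in the control, 320 after 10 mGy, 398 after 100 mGy and 234 after 1 Gy. Its ratio was 1.37 (1.35 to 1.38) after 10 mGy and 1.70 (1.69 to 1.72) after 100 mGy. On the CPM scale the low-dose libraries were thus high and the 1 Gy library equalled the control. CKS2 is the shortest member by exonic length. Centred by this length, as described below, its ratio was 1.03 after 10 mGy, which ends that call, and 1.28 after 100 mGy. CCNA2, cyclin A2, went the other way, with 112 CPM in the control, 80.5 after 10 mGy, 85.0 after 100 mGy and 114 after 1 Gy. Its ratio was 0.720 (0.707 to 0.733) at 10 mGy and 0.761 at 100 mGy. With size factors these were 0.887 and 0.993, which ends both calls. Centred by length they were 0.747 and 0.822, and both calls stay. Centred by length, the medians of the group were 1.15 and 1.28 at the low doses. The other 7 genes of the group ranged from 0.904 to 1.35 at 10 mGy.

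CDK1, the kinase itself, and CDC25B, a phosphatase that activates it, were the 2 members at least 1.2-fold above control at 1 Gy. They were named after their values were seen. Both calls end with size factors or centred by length, where 0 members were higher, against 0.658% and 0.906% of all genes, and the ratios centred by length were 1.18 and 1.196. CDK1 had 83.4 CPM in the control, 80.7 after 10 mGy, 75.3 after 100 mGy and 101 after 1 Gy, a ratio of 1.21 (1.18 to 1.23) at the highest dose. CDC25B had 95.99, 97.6, 91.0 and 118 CPM in the same order, a ratio of 1.23 (1.203 to 1.25). In both genes the 1 Gy library was the highest and the 100 mGy library the lowest. GTSE1, at 1.198 (1.18 to 1.21), lay just under the limit. CCNB1, the main mitotic cyclin, had 250.2, 226, 259 and 267 CPM. Its highest and lowest libraries, 1 Gy and 10 mGy, bracketed the control.

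Among the 12 spindle pole and spindle assembly genes, 8 were lower by 1.2-fold at 10 mGy and 0 were higher, against 53% and 15.4% of all genes, with a median ratio of 0.730. At 100 mGy 5 were lower and 1 was higher, against 58.9% and 14% of all genes, with a median of 0.880. Centred by length 7 were lower and 0 higher at 10 mGy, against 22.2% and 24.1% of all genes, and at 100 mGy 1 was lower and 4 higher, against 23.8% and 25.6%. With size factors 4 were lower and 1 higher at 10 mGy, against 27.3% and 30.6%, and at 100 mGy 3 were lower and 4 higher, against 29% and 31.8%. The direction of the group's median at 100 mGy thus depends on the scaling, at 1.02 centred by length and 1.15 with size factors. TPX2, which activates AURKA on the spindle, had 594 CPM in the control, 382 after 10 mGy, 432 after 100 mGy and 624 after 1 Gy, a ratio of 0.642 (0.637 to 0.647) at 10 mGy. ASPM, a spindle pole protein, had 308, 166, 192 and 268 CPM, with a ratio of 0.540 (0.533 to 0.546) at 10 mGy. Both low doses lay below the control and 1 Gy in these genes. At 100 mGy the ratios of TPX2 and ASPM were 0.727 and 0.622, and centred by length they were 0.839 and 0.986, which ends both calls. NUSAP1, a microtubule-binding protein, had 229.95 CPM in the control, 231 after 10 mGy, 271 after 100 mGy and 242 after 1 Gy. Its 10 mGy ratio of 1.00 (0.992 to 1.02) was the highest of the group.

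The chromosomal passenger complex, which corrects faulty attachments of chromosomes, was represented by its kinase AURKB and by BIRC5 and CDCA8, and 1 of the 3 genes, CDCA8 (0.827), was lower at 10 mGy, against 53% of all genes. With size factors CDCA8 stood at 1.02, which ends the call and turns its sign, and 0 were lower and 2 higher, against 27.3% and 30.6% of all genes. Centred by length CDCA8 stayed lower, at 0.746, and AURKB stood at 0.995. AURKB had 115 CPM in the control, 126 after 10 mGy, 121 after 100 mGy and 132 after 1 Gy. BIRC5, survivin, had 219, 220.1, 251 and 232 CPM in that order. CDCA8, borealin, had 82.2, 68.0, 82.8 and 88.8 CPM. These subunits of one complex differed in order, since the 10 mGy library was the lowest for CDCA8 and the second highest for AURKB. At 1 Gy the ratios of all 3 were between 1.06 and 1.15.

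The spindle checkpoint and anaphase promoting complex genes split. BUB1, BUB1B and TTK, checkpoint kinases or kinase-like proteins, were lower at 10 mGy by 1.2-fold, while PTTG1 and UBE2C were higher and 3 genes lay between. The shares over all genes were 53% lower and 15.4% higher. Centred by length the calls of TTK (0.858) and UBE2C (1.185) end, and with size factors that of TTK (0.851) does. The group's median of 0.953 at 10 mGy was 1.01 centred by length and 1.17 with size factors. PTTG1, securin, which holds back the separation of sister chromatids, had 297 CPM in the control, 475 after 10 mGy, 510 after 100 mGy and 291 after 1 Gy. The ratio to control was 1.60 (1.58 to 1.61) after 10 mGy and 1.72 (1.70 to 1.73) after 100 mGy. BUB1 had 61.8 CPM in the control, 36.3 after 10 mGy, 41.2 after 100 mGy and 60.7 after 1 Gy, a ratio of 0.587 (0.572 to 0.602) at 10 mGy. The low doses thus stood above the other libraries for PTTG1 and below them for BUB1. UBE2C, the ubiquitin-conjugating enzyme of the anaphase promoting complex, named after its values were seen, had 259 CPM in the control, 407 after 10 mGy, 469 after 100 mGy and 288 after 1 Gy. MAD2L1, a checkpoint protein also named in this way, had 52.7, 63.0, 70.4 and 48.6 CPM in the same order.

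Of the 5 kinetochore genes, 2 were lower at 10 mGy by 1.2-fold and 0 were higher, against 53% and 15.4% of all genes. CENPE, a motor protein that moves chromosomes to the spindle equator, had 129.8 CPM in the control, 64.1 after 10 mGy, 79.4 after 100 mGy and 112 after 1 Gy. CENPF, a large kinetochore protein, had 501 CPM in the control, 312 after 10 mGy, 353 after 100 mGy and 478 after 1 Gy. NDC80, which binds microtubules at the kinetochore, had 66.5 CPM in the control, 69.6 after 10 mGy, 85.5 after 100 mGy and 62.8 after 1 Gy. The ratios at 10 mGy were 0.494 (0.485 to 0.503) for CENPE, 0.624 (0.619 to 0.630) for CENPF and 1.05 (1.02 to 1.07) for NDC80. With size factors 2 were lower and 2 higher, against 27.3% and 30.6%, and the direction of the group's median turned, from 0.939 to 1.16. Centred by length, CENPF stood at 0.958 at 10 mGy, which ends its call, and CENPE at 0.716. NDC80 was highest at 100 mGy, and the other genes named here were highest in the control.

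All 6 kinesins lay below control at 10 mGy by some amount, with a median ratio of 0.753, where the median of all genes was 0.810. By 1.2-fold or more 4 of them were lower, against 53% of all genes. Centred by length or with size factors 4 of the 6 lay below at 10 mGy by some amount, on scales that set the median gene at or near no change. By 1.2-fold 2 were lower, against 22.2% and 27.3% of all genes lower in these settings. Centred by length, the kinesins above were KIF20A and KIF20B, at 1.02 and 1.06 times their length bin. KIF11, which pushes the spindle poles apart, had 159 CPM in the control, 94.0 after 10 mGy, 108 after 100 mGy and 166 after 1 Gy. KIF23, of the central spindle, had 190.4, 139.6, 162 and 184 CPM. KIF20A, which acts in cytokinesis, had 42.4, 37.8, 38.8 and 46.6 CPM. The 10 mGy library was the lowest for each of these. The 3 cytokinesis genes were lower at 10 mGy by 1.2-fold, against 53% of all genes. Centred by length or with size factors 1 of the 3, ANLN, stayed lower by this limit, against 22.2% and 27.3% of all genes. ANLN, anillin, a scaffold of the contractile ring, had 394 CPM in the control, 207 after 10 mGy, 238 after 100 mGy and 349 after 1 Gy. PRC1, which bundles microtubules of the central spindle, had 312, 248, 333 and 332 CPM, so that 100 mGy and 1 Gy lay close together and the 10 mGy library was the one below the control.

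The chromosome structure genes held the lowest ratio of the list. MKI67, the proliferation antigen Ki-67 that coats mitotic chromosomes, had 685 CPM in the control, 338 after 10 mGy, 355 after 100 mGy and 665 after 1 Gy. Relative to control it stood at 0.493 (0.489 to 0.497) after 10 mGy and 0.519 (0.514 to 0.523) after 100 mGy. It is the longest member, and centred by length it stood at 0.756 and 0.865, which ends the call at 100 mGy. HMGB2, a DNA-bending protein, had 279 CPM in the control, 274 after 10 mGy, 299 after 100 mGy and 261 after 1 Gy. TOP2A, the topoisomerase that untangles sister chromatids, named after its values were seen, had 385, 307, 309 and 447 CPM. For TOP2A the low doses were close to each other and 1 Gy was 1.16 (1.15 to 1.17) times control, while centred by length TOP2A lay above 0 at both low doses (0.09 and 0.16, log2). In the annotation used, 13 members have pseudogenes named after them, among them CKS1B (6), UBE2C (4), AURKA (2) and MKI67 (1), and how the counting divided reads among such copies is not given in the sources used here.

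Other genes of the same processes also lay mostly below control at the low doses, with lower median ratios than the members. Of 79 further mitosis genes that are not members, 78 were tested. At 10 mGy 54 of them were lower and 4 higher, against 53% and 15.4% of all genes, with a median ratio of 0.742. At 100 mGy 50 were lower and 7 higher, against 58.9% and 14% of all genes, with a median of 0.760. Centred by length 31 were lower and 8 higher at 10 mGy, while at 100 mGy 18 were lower and 14 higher. The shares of all genes on this scale were 22.2% and 24.1%, and 23.8% and 25.6%. With size factors 28 were lower and 14 higher at 10 mGy, and at 100 mGy 18 were lower and 22 higher, against 27.3% and 30.6%, and 29% and 31.8%, of all genes. In the 1 Gy library 0 were lower and 2 higher, against 0.846% and 1.28% of all genes. INCENP, the scaffold of the chromosomal passenger complex, had 66.0 CPM in the control, 29.9 after 10 mGy, 32.0 after 100 mGy and 75.3 after 1 Gy, and its ratio at 10 mGy was the lowest. KIF14, a kinesin of cytokinesis, followed with 70.1, 33.4, 39.8 and 65.2 CPM. ANAPC11, a subunit of the anaphase promoting complex, had the highest ratio, with 239, 474, 445 and 269 CPM, and CENPW, a small kinetochore protein, followed with 145, 255, 288 and 138 CPM. Of 57 replication and G1/S genes tested, 18 were lower and 5 higher at 10 mGy, against 53% and 15.4% of all genes, with a median ratio of 0.901 against 0.810. At 100 mGy 28 were lower and 5 higher, against 58.9% and 14%, with a median of 0.869 against 0.766. On the CPM scale the lower counts of this list are thus under the background. With size factors its medians lay above control, at 1.11 and 1.13. Centred by length 6 were lower and 8 higher at 10 mGy, against 22.2% and 24.1% of all genes, with a median of 1.03. At 100 mGy 14 were lower and 11 higher when centred, against 23.8% and 25.6%, with a median of 0.986.

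The comparison of 100 mGy with 10 mGy uses neither the control nor the 1 Gy library, and was taken up after the data were seen. It divides by the 10 mGy library, and the list was taken up with its lower level in that library known. A ratio above 1 is therefore no independent support for that lower level. In this comparison 45 of the 50 members were higher at 100 mGy by any amount, against 32.2% of all genes tested. Of the members, 10 were higher by 1.2-fold or more and 0 were lower, against 1.35% and 12.7% of all genes. The count of 10 became 24 with size factors (4.69% of all genes), 20 centred by length (4.08%) and 6 with the mean of UMIs scaled per barcode (1.962%). The median ratio of the members was 1.13 (0.878 to 1.35), while that of all genes was 0.9504, with its central 80% between 0.818 and 1.09. Across the alternative settings 42 to 47 members lay above 10 mGy, and the share of all genes that did so was 53.1% with size factors, 52.9% centred by length and 29.5% to 36.4% otherwise. The other mitosis genes were intermediate, with 51 of 78 higher and a median ratio of 1.05. The replication and G1/S genes were near the values for all genes, with 17 of 57 higher and a median ratio of 0.944.

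HMMR, a spindle protein that binds hyaluronan, had the highest ratio in this comparison. It had 93.8 CPM in the control, 89.0 after 10 mGy, 120 after 100 mGy and 89.9 after 1 Gy, so the 100 mGy library stood alone, and its ratio to 10 mGy was 1.35 (1.32 to 1.37). PRC1 at 1.34 (1.33 to 1.36) and KIF2C, a kinesin that takes microtubules apart, at 1.34 (1.31 to 1.36) followed. KIF2C had 90.5, 77.3, 103 and 96.3 CPM. AURKA, the spindle pole kinase, had 258, 188, 235 and 273 CPM, with a ratio of 1.25 (1.24 to 1.27). CKS2 was also at 1.25 (1.23 to 1.26). Below 1 were TACC3 at 0.878 (0.861 to 0.894), CDC25B at 0.932, CDK1 at 0.934, AURKB at 0.959 and CCNB2 at 0.967. TACC3, which stabilises microtubules of the spindle together with CKAP5, had 153 CPM in the control, 89.5 after 10 mGy, 78.6 after 100 mGy and 176 after 1 Gy, so that 100 mGy was its lowest library. These genes were chosen by their values.

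**Figure D2:**
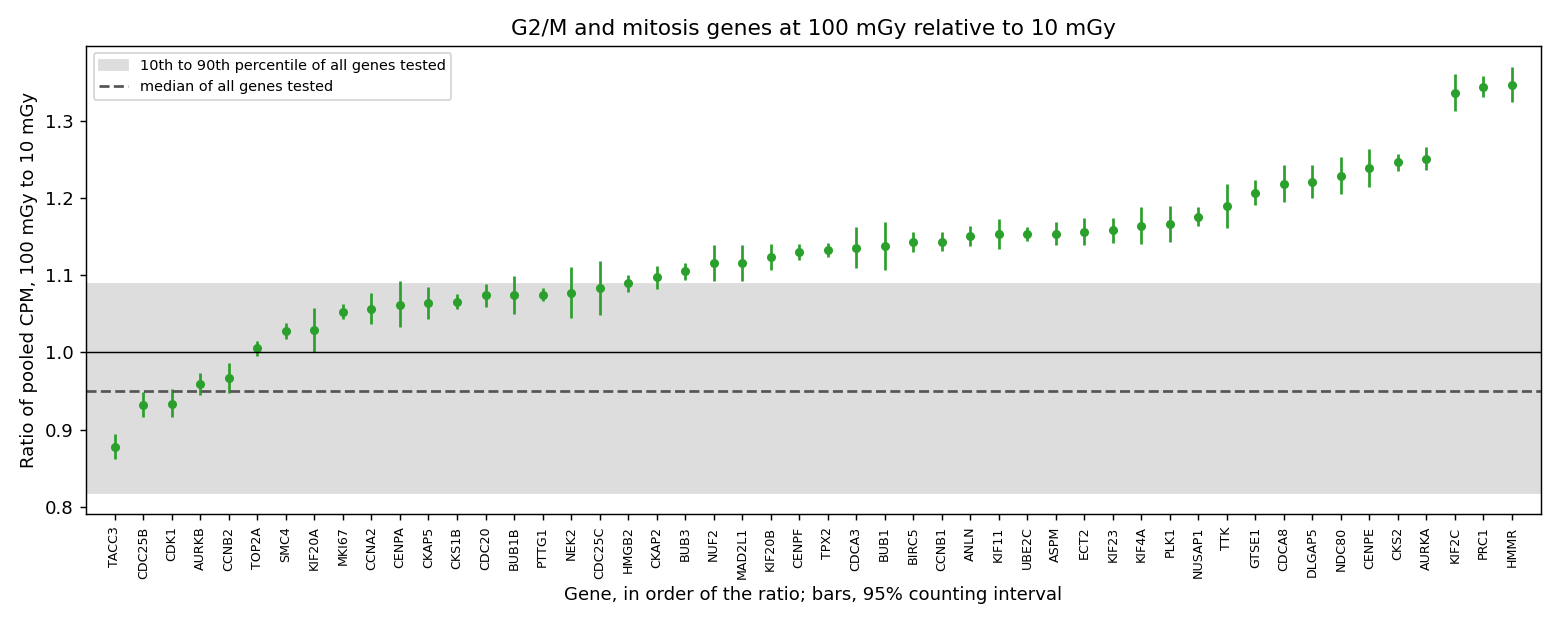
Ratio of the pooled level (CPM) at 100 mGy to that at 10 mGy for each of the 50 members, in order of the ratio, with exact 95% counting intervals. The grey band spans 0.818 to 1.09, the central 80% of the 8507 genes tested, and the dashed line is their median of 0.9504; 45 members lie above 1.

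The ratios at the low doses followed gene length. Whether intronic reads were counted is not given in the sources used here, so exonic length may not be the length that bears on the counts, which limits the correlations below and every value centred by length. Exonic length here joins all annotated exons of a gene, so it can exceed the length of any of its transcripts. For the members, from GENCODE 29, it had a median of 4100 bases (613 to 12807), below the median of 5323 for all genes tested. Across the 50 members the Spearman correlation of length with the log2 ratio to control was -0.66 after 10 mGy, -0.65 after 100 mGy and -0.33 after 1 Gy. Across 8500 genes it was -0.55, -0.57 and 0.03. The points of a correlation are genes of the same pair of libraries and are not replicates. The shortest members, CKS2 with 613 bases and UBE2C with 1286, stood above control at both low doses, and the longest, MKI67 with 12807 bases, CENPF with 11690 and ASPM with 10887, stood below it. Exonic length, measured in this way, did not order every member. CCNA2 with 2798 bases and AURKA with 2928 stood below control at both low doses, and MAD2L1 with 5748 stood above it.

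With all genes split into equal groups by length, 25 members fell in the short group (up to 4015 bases), 18 in the middle and 7 in the long one (over 6926 bases). At 10 mGy the median ratio of the members was 0.972 in the short group, 0.733 in the middle and 0.543 in the long group. For all genes it was 1.04, 0.792 and 0.680. At 100 mGy it was 1.07, 0.835 and 0.622 for the members and 1.01, 0.753 and 0.626 for all genes. In each length group the members were thus lower than all genes at 10 mGy, while at 100 mGy the short and middle members were higher and the 7 long ones about level.

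After the median log2 ratio of genes of similar length was subtracted, in 20 length bins, 19 members were lower by 1.2-fold and 6 higher at 10 mGy, against 22.2% and 24.1% of all genes. At 100 mGy 2 were lower and 19 higher, against 23.8% and 25.6%. Of the 25 members lower on the CPM scale at 10 mGy, 16 were lower on this scale too, as were 3 of the 5 higher ones. Of the 18 lower at 100 mGy, 2 were lower here too, and the 10 higher ones stayed higher. The values called on the CPM scale that moved by over 1.5 times were those of CENPF and MKI67 at both low doses and of CKAP5 (0.578 to 0.887), ASPM, CENPE (0.612 to 0.9599) and SMC4 (0.679 to 1.04) at 100 mGy. With size factors 13 of the 25 and 6 of the 18 lower members stayed lower. Size factors move every log2 ratio of a dose by the same amount, upward at both low doses. The 5 and 10 higher members therefore had to stay higher. The shares of all genes that kept their calls are not given, so these counts do not set the members apart. The median of the members centred by length was -0.05 after 10 mGy, 0.13 after 100 mGy and 0.04 after 1 Gy on the log2 scale. On this scale the lowest members at 10 mGy were ANLN at 0.694 times, TPX2 at 0.711 times and CENPE at 0.716 times their length bin. The highest were MAD2L1 at 1.51 times, CDCA3, a regulator of entry into mitosis, at 1.49 times and BUB3, a checkpoint protein, at 1.32 times. Their exonic lengths were 5748, 5653 and 8300 bases, their uncentred ratios were 1.197, 1.18 and 0.935, and they were named after their values were seen. The ratio of 100 mGy to 10 mGy had a correlation with length of -0.01 in the members and -0.20 in all genes. At 1 Gy the members' log2 ratios followed the GC content of the transcript, with a correlation of 0.58, against 0.35 in all genes. Whether length or GC content plays a part in how molecules were captured or counted was not tested.

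**Figure D3:**
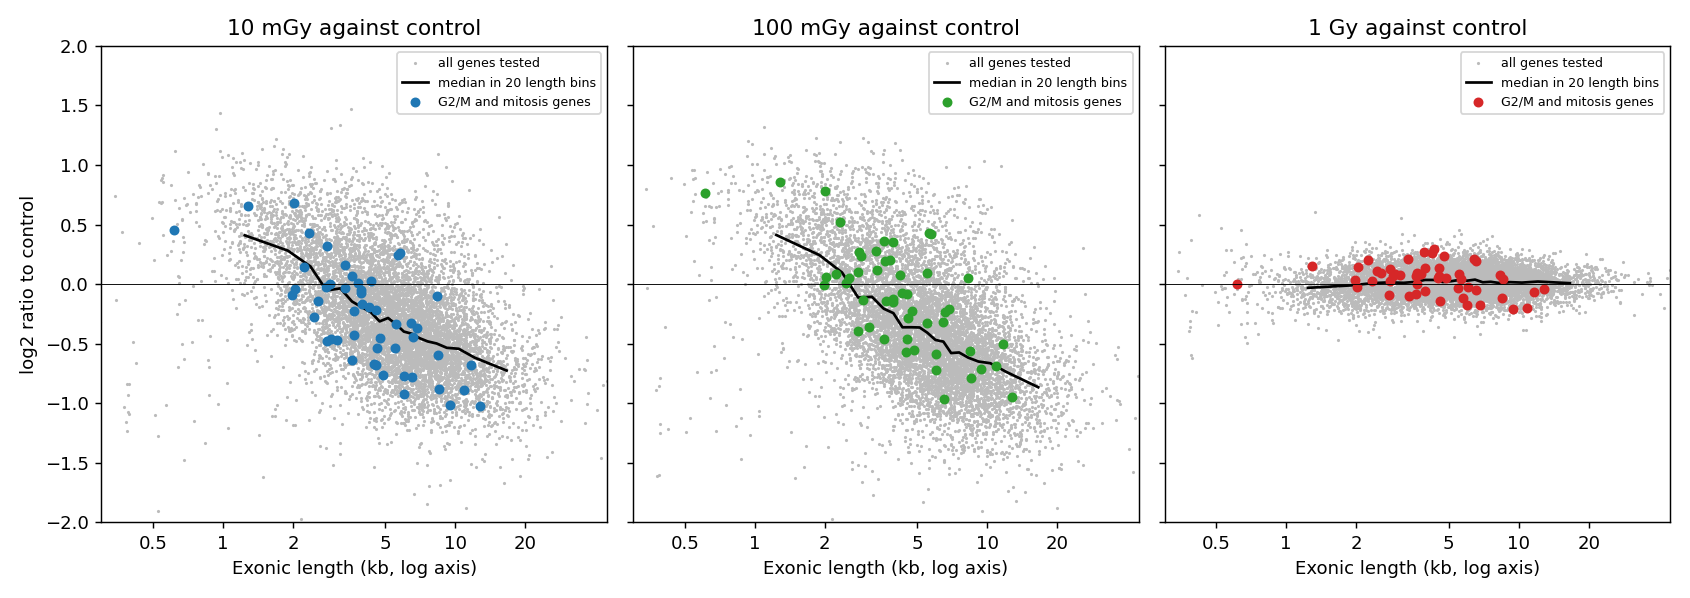
log2 ratio to control against exonic length in kb (log axis), with 1 panel per dose, all genes tested in grey, the median of 20 length bins as a black line and the 50 members as large points. At 10 and 100 mGy the members slope down with length (correlations of -0.66 and -0.65) as the grey points do, and at 1 Gy both lie near 0.

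2 comparisons without a shared library were set side by side, 10 mGy against control and 100 mGy against 1 Gy. At 100 mGy against 1 Gy, 21 members were lower by 1.2-fold and 8 higher, against 60.6% and 14% of all genes, with a median ratio of 0.893 against 0.747. Across the 50 members the log2 ratios of these comparisons had a Pearson correlation of 0.88, and across all 8507 genes tested it was 0.91. The points are genes, which share length and base composition across both comparisons.

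To compare cells at one depth, each barcode was thinned to 5000 UMIs, which left 9060 cells in the control, 12561 after 10 mGy, 14271 after 100 mGy and 11530 after 1 Gy. Barcodes with fewer UMIs were left out, 2051, 8953, 5679 and 3980 in the same order. A cell had UMIs of 23 members in the median in the control, 21 after 10 mGy, 22 after 100 mGy and 24 after 1 Gy. Unthinned over all barcodes, the medians were 40, 31, 32 and 36. The mean UMIs of the members per thinned cell were 45.1 in the control, 37.5 after 10 mGy, 42.0 after 100 mGy and 46.2 after 1 Gy. The 10 mGy library was thus the lowest per cell as well as in the pooled share. Both measures set member UMIs against all UMIs, so the second is no independent support for the first. Neither was recomputed with size factors, with which the sign of the members' median turned at both low doses. The 10% of cells richest in members held 21.2% of the members' UMIs in the control, 22.0% after 10 mGy, 21.4% after 100 mGy and 20.8% after 1 Gy. The part held by the richest cells therefore differed by little among the libraries. In each library 0 thinned cells were without a member.

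**Figure D4:**
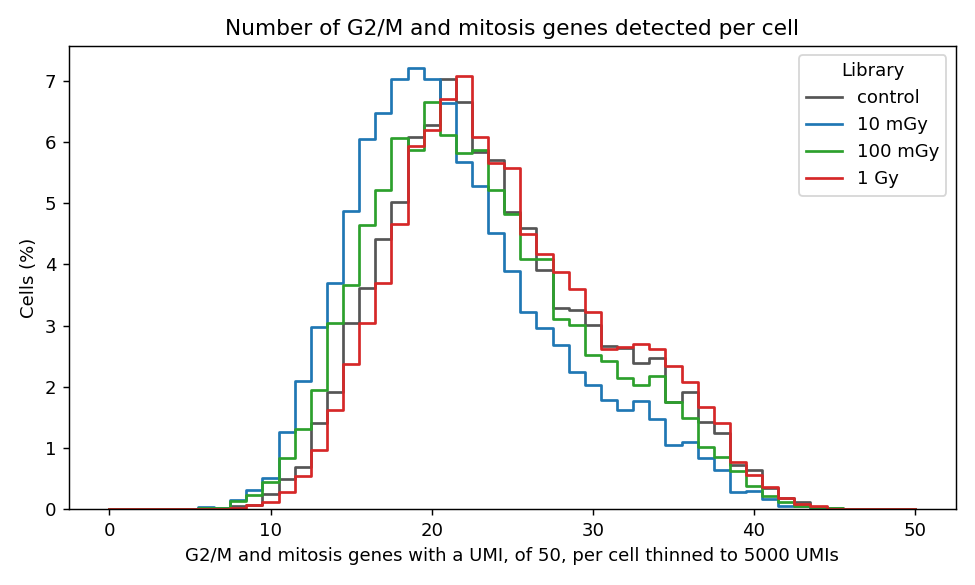
Share of cells, in percent, by the number of the 50 members with at least 1 UMI, in cells thinned to 5000 UMIs, with 1 line per library. The curve at 10 mGy (median 21) lies left of those of the control (23) and 1 Gy (24), with 100 mGy (22) between, and each has a shoulder of cells with over 30 members.

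The members followed other mitosis genes from cell to cell. When the cells of the control were ordered by their UMIs of the 79 other mitosis genes, the 10% at the top had 84.0 member UMIs on average, and the lower 50% had 33.3. At 10 mGy the means were 69.6 and 28.6, at 100 mGy 77.1 and 31.4, and at 1 Gy 83.9 and 34.3. The ratio of top to bottom was between 2.43 and 2.52 in every library, and both ends of the order were lowest at 10 mGy. The cells were at equal depth, so these means set member UMIs against all UMIs. They were not recomputed with size factors. On the pooled CPM scale the median ratio of all genes at 10 mGy was 0.810. Lower means at both ends therefore do not set the members apart from other genes. Member UMIs in the lower cells can include free RNA of other cells, and the culture holds no cell type that lacks these genes. The part of free RNA was not tested.

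The cell-to-cell spread of the members was wide among the genes compared, which were not matched on level. The Fano factor, the variance over the mean of thinned UMIs, had a median of 1.18 to 1.21 over the members in the 4 libraries and of 1.02 over the 5673 genes with at least 0.1 UMI per cell. The median member lay at the 95.3 to 96.04 percentile of these genes. AURKA had Fano factors of 2.27 in the control, 1.84 after 10 mGy, 2.07 after 100 mGy and 2.12 after 1 Gy, beside means of 1.24, 0.880, 1.11 and 1.29 UMIs. In UBE2C they were 1.81, 2.31, 2.37 and 1.77, beside means of 1.201, 1.86, 2.17 and 1.32 UMIs. By the Fano factor AURKA thus had its lowest value in the library of its lowest level, and UBE2C its highest values in those of its highest levels. The standard deviation over the mean went the other way. In the order control, 10 mGy, 100 mGy and 1 Gy it was 135%, 145%, 137% and 128% for AURKA. For UBE2C it was 123%, 112%, 105% and 116%. Which library had the wider spread therefore depends on the measure. MAD2L1 had the lowest Fano factors of the members, at 0.993 to 1.04.

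The share of thinned cells with at least 1 UMI followed the pooled levels. MKI67 was found in 91.5% (90.9 to 92.1) of cells in the control, 73.7% (72.9 to 74.5) after 10 mGy, 74.98% (74.3 to 75.7) after 100 mGy and 91.2% (90.7 to 91.8) after 1 Gy. For PTTG1 the shares were 74.5% (73.6 to 75.4), 86.8% (86.2 to 87.4), 88.3% (87.8 to 88.8) and 73.7% (72.9 to 74.5). For HMMR they were 32.0% (31.0 to 33.0), 31.1% (30.3 to 32.0), 39.2% (38.4 to 39.98) and 31.8% (30.9 to 32.6). These genes were chosen after their values were seen. MKI67 was thus detected in fewer cells at the low doses, PTTG1 in more, and HMMR in more at 100 mGy alone.

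Over the 45 members with a mean of at least 0.2 UMI, the Pearson correlation of a pair across thinned cells, on the natural log of 1 + UMIs, had a median over 990 pairs of 0.117 in the control, 0.102 after 10 mGy, 0.111 after 100 mGy and 0.112 after 1 Gy. The points are cells of 1 library at equal depth. In the control the highest pairs were CCNB1 with AURKA at 0.42, AURKA with CENPF at 0.40 and AURKA with TPX2 at 0.38. At 10 mGy the same pairs had 0.34, 0.31 and 0.29. They were picked as the highest in the control, and AURKA, CENPF and TPX2 had lower levels at 10 mGy. CKS2 with UBE2C, both with higher levels at 10 mGy, went the other way, from 0.19 to 0.24. Whether these values move with the level of the genes was not tested. AURKA had the highest mean correlation with the other members in the control (0.230) and MAD2L1 the lowest (0.0376). PTTG1, the member with the highest ratio at 10 mGy, was among the lowest as well, at 0.0410. The partners of CCNB1 included DLGAP5 (0.30), HMMR (0.30), CDC20 (0.28) and TOP2A (0.26) in the control, and TOP2A was at 0.31 with UBE2C. PTTG1 was at 0.17 with CCNB1 but at 0.0020 with UBE2C, the member next to it in the ratio at 10 mGy, and at 0.0068 to 0.0091 in the other libraries. CDK1 and its partner CCNB1 were at 0.068. These pairs were chosen after their values were seen, and values near 0 in sparse counts are no finding.

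**Figure D5:**
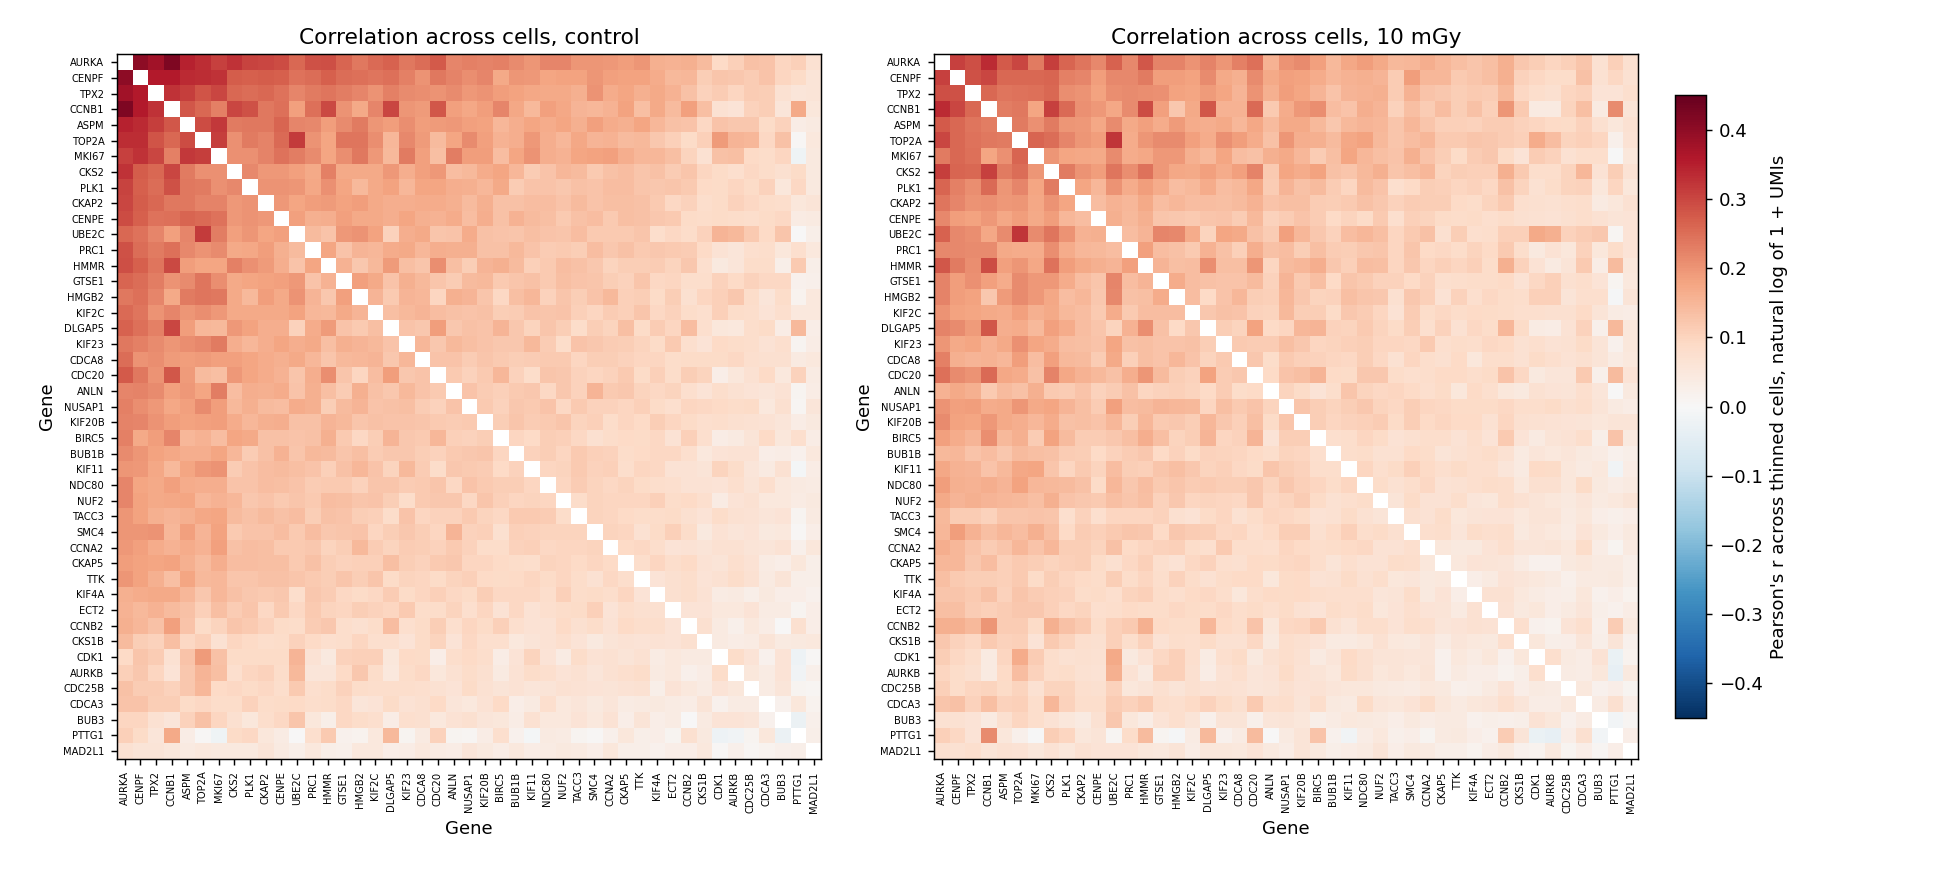
Pearson correlation between members across cells thinned to 5000 UMIs, in the control (left) and at 10 mGy (right), for 45 members ordered on both axes by their mean correlation in the control. Red is positive and blue negative. The block of AURKA, CENPF, TPX2 and CCNB1 at the top left reaches 0.42 in the control and 0.34 at 10 mGy. AURKA, CENPF and TPX2 also had lower levels at 10 mGy.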

How the data were processed

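The authors deposited 1 matrix of UMI counts (genes by barcodes) for each library, made from BEAS-2B cells by droplet 3′ sequencing. The file header names Cell Ranger 7.0.1, and the submitters' processing notes name GRCh37 and STAR. Which annotation was used and how intronic reads were treated is not given in the sources used here. Libraries were assigned to doses by their labels.

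All deposited barcodes were used and doublets were kept. UMIs of each gene were summed over the barcodes of a library and given per 1000000 UMIs of the library (CPM). Genes with a mean of at least 10 CPM over the 4 libraries were compared, and a gene was called at 1.2-fold, the fold in the study's methods. Ratios carry exact conditional binomial intervals, and shares carry Clopper-Pearson intervals, at 95%, for counting error only. Library totals of 211752280 to 285806026 UMIs make counting error small, and the missing replicates limit the precision. Exonic length and GC content were taken from GENCODE 29 (GRCh38) by gene identifier for 99.9% of the genes tested, and promoters from RefSeq (GRCh38.p14). Because the notes name another build, no coordinates are given for the genes of the matrices. Cells were thinned to 5000 UMIs.

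Members and lists were chosen with earlier results of these data known. In each of 8 role groups, values were given for the member with the highest mean CPM and those with the highest and lowest ratio at 10 mGy. Of the other mitosis genes, the 2 highest and the 2 lowest at 10 mGy were named. Other genes were named after their values were seen. Alternatives were 2 other scalings, 3 choices of barcodes, 2 lower floors, centring by length, a 1.5-fold limit and thinning to 3000 UMIs. The code for ratios and length centring was run on simulated counts with known folds, with and without a trend in exonic length. The trend used the same length as the centring, so the run cannot show which length bears on the counts. Python 3.11.15, numpy 2.4.6, scipy 1.17.1 and pandas 2.3.3 were used.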

Additional observations from a re-analysis of the deposited data

How the results depend on the processing

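Results were recomputed under other settings, and the causes of the moves were not tested. Those for role groups, for 100 mGy against 10 mGy by 1.2-fold and for members outside the naming rule were added after the data were seen. With the mean of UMIs scaled to 10000 per barcode, 8 members were higher at 10 mGy, against 16.1% of all genes. The members' log2 ratio had a median there of -0.13 after 10 mGy, -0.047 after 100 mGy and 0.12 for 100 mGy against 10 mGy. With median ratio size factors it was 0.051 after 10 mGy, 0.28 after 100 mGy, 0.021 after 1 Gy and 0.26 for 100 mGy against 10 mGy. There 13 members were lower and 15 higher at 10 mGy, 6 lower and 25 higher at 100 mGy, and 0 higher at 1 Gy. Centred by length, the medians were -0.047 after 10 mGy, 0.13 after 100 mGy and 0.24 for 100 mGy against 10 mGy, with 2 lower and 19 higher at 100 mGy and 0 higher at 1 Gy. At a 1.5-fold limit 13 were lower and 2 higher at 10 mGy, against 25.8% and 4.94% of all genes. At 100 mGy 6 were lower and 3 higher by this limit, against 33.9% and 5.04%. At 1 Gy 0 were higher by it, against 0.0118%. Members 1.2-fold higher at 100 mGy than at 10 mGy, 10 in the report, were 24 with size factors, 20 centred by length and 6 with UMIs scaled per barcode. In the last of these settings 1 was lower, against 11.3% of all genes.

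Among log2 ratios past 1.2-fold, signs turned with size factors for CDCA8 at 10 mGy (0.027) and for NEK2 (0.023), TTK (0.10), ECT2 (0.060) and TOP2A (0.066) at 100 mGy. Centred by length they turned for KIF20B (0.082), PRC1 (0.00073) and TOP2A (0.091) at 10 mGy and for TTK (0.079), CENPF (0.23), ECT2 (0.084), TOP2A (0.16) and SMC4 (0.059) at 100 mGy. Counting members within 1.2-fold as well, 12 of 50 signs turned at 10 mGy and 17 at 100 mGy centred by length, and 13 and 14 with size factors. The shares of all genes whose sign turned are not given, so these counts do not set the members apart.

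Without low-UMI barcodes the members' share of UMIs was 0.934% in the control, 0.768% after 10 mGy, 0.867% after 100 mGy and 0.953% after 1 Gy. Without barcodes of very high UMI count, over 2 times the median of the barcodes that are not low-UMI, it was 0.935%, 0.773%, 0.871% and 0.951%. Thinned to 3000 UMIs, cells held 17.8, 15.6, 16.8 and 18.1 members on average, in place of 24.0, 21.6, 23.0 and 24.6. The order of the libraries was the same in each case. These settings leave the scaling to all UMIs in place, and the shares were not recomputed with size factors. The other 90 counts, medians, shares and means recomputed moved by no more than 1.5 times (counts) or stayed within their counting interval or spread. No paired analysis was possible because each dose has 1 library and the labels carry no replicate numbers.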
